A study of Schizosaccharomyces pombe with 6 samples.

Results

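The right end of chromosome II of fission yeast was taken as every non-control probe that starts at position 4342001 of the chromosome or beyond. This gave 496 of the 42707 probes of the array. The rule used position alone, although the segment was chosen with earlier results of these arrays known. The first probe starts at 4342185 and the last ends at 4491993, a stretch of about 150 kb with a median of 269 bp between probe starts. All 496 probes passed the filter on input signal, which asked for a signal well above background on at least 3 of the 6 arrays. They filled 142 of the 12069 measured 1-kb bins, 15 of the 1226 10-kb windows and 52 of the 4168 measured genes. The 47.8 kb between the last probe and the end of the chromosome held no probe, nor did 5110 bp at the retrotransposon Tf2-11 (II:4413945-4419054).

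Rad52 binding was measured in Schizosaccharomyces pombe by ChIP-on-chip, in which DNA precipitated with an anti-Rad52 antibody and the input DNA of the same chromatin are hybridised to one array in 2 colours. The background of every sample was cdc25-22, in which the mitotic activator Cdc25 is inactive at high temperature. There were 3 arrays of cells with this allele alone (WT) and 3 of cells that also lacked rad3 (Δrad3), the gene of the checkpoint kinase related to human ATR. All cells were grown in EMM6S medium, held for 4 h at 36.5 °C, released at 25 °C, treated with 6 mM hydroxyurea, which inhibits ribonucleotide reductase and so slows replication, and collected 60 min after release. The cdc25-22 allele, the hydroxyurea and the antibody were thus common to both groups, and untreated cells or a mock precipitation were not analysed here. The sample descriptions of WT 1 and WT 2 describe chromatin, whereas those of WT 3 and the Δrad3 samples describe RNA extraction, so how these last 4 were prepared is uncertain. Values are log2 of precipitated over input signal (IP/input), where 0 is the median probe of that array.

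One library went against its label. Of the 33 probes of rad3, 12 had lost their input signal on the Δrad3 arrays, at -4.59, -5.02 and -4.58 (mean log2, array median 0), and 21 had kept it, at 0.06, 0.02 and 0.03. The library labelled WT replicate 2 stood at -5.83 over those 12 and at -4.02 over the other 21, so it lacked signal over more of rad3 than the Δrad3 arrays did. WT 1 and WT 3 stood at -0.77 and -0.92 over the 12 and at 0.11 and 0.03 over the 21. Results that rest on it are therefore also given after leaving it out. Whether replicates came from separate cultures is not described, so a p-value reflects array-to-array spread, which may be technical. Precision is limited by having only 3 arrays per strain. Same-numbered WT and Δrad3 arrays lay on one slide, and the difference within each slide is given beside the main differences.

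Rad52 is a recombination protein that anneals complementary DNA strands, and it gathers where replication forks stall or break. Rad3 is the kinase that senses single-stranded DNA and restrains origin firing and fork processing. Chromosome ends of fission yeast carry heterochromatin near the telomere and, further in, genes that are kept at a low level in rich conditions. The segment studied here holds a phosphate locus and a galactose locus. In the phosphate locus the transporter gene pho84 and the acid phosphatase gene pho1 lie in tandem, each preceded by a long non-coding RNA, prt2 and prt (annotated as nc-pho1), whose transcription represses the gene downstream. The galactose locus holds gal7, gal10 and gal1, which encode the uridylyltransferase, the epimerase and the galactokinase of the Leloir pathway, although wild-type fission yeast does not grow on galactose. AT-rich islands, long intergenic stretches of A and T, are where many origins of replication of this species lie.

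Base composition differed little between the segment, at 65.3% A+T, and the 3 chromosomes as a whole, at 63.9%. The segment held 12 of 369 AT-rich islands, defined as merged windows of 1000 bp with at least 72% A+T that are at least 50% non-coding. Its annotation lists 54 protein-coding genes and 92 long non-coding RNAs, with no gene for tRNA, rRNA, snRNA or snoRNA. The sequences below, from the RefSeq assembly ASM294v3, show the base composition at several places of the segment. Not all of these places had high Rad52 signal. For 5 gaps between genes the most A+T-rich 200 bases are given, for nam3, a non-coding RNA, its first 200 bases on the transcribed strand, and for the gap between gal7 and tgd1 all 290 bases. Capitals mark runs of at least 5 A or 5 T.
Tf2-11 to pfl5: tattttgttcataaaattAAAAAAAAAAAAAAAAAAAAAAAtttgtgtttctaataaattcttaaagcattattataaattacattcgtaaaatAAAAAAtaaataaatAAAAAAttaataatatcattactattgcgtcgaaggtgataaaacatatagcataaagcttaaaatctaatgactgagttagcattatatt
pho84 to pho1: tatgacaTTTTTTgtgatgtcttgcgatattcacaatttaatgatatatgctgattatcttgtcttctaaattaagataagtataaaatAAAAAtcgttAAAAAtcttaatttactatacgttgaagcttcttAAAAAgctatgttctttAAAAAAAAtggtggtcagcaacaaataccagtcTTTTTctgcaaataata
fub2 to nrg1: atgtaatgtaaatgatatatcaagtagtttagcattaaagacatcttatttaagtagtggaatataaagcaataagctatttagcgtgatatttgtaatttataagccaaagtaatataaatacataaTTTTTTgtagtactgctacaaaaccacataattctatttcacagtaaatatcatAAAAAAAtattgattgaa
nam3: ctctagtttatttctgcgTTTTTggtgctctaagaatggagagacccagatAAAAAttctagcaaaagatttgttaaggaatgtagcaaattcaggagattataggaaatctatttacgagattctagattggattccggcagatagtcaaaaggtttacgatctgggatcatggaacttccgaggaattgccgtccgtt
SPBPB2B2.08 to pan5: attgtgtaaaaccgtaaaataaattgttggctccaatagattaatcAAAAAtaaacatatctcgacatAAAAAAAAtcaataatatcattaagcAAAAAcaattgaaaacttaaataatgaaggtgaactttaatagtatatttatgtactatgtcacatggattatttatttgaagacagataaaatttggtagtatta
gal7 to tgd1: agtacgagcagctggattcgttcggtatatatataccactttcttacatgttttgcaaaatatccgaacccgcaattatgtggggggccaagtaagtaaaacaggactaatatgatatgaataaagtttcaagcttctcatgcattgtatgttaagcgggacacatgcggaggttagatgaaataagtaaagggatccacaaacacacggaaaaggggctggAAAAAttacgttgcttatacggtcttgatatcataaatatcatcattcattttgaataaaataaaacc
gal1 to SPBPB2B2.14C: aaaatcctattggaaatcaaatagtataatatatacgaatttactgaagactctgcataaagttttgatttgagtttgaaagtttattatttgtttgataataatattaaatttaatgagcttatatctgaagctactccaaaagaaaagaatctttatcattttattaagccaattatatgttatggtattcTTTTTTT

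These stretches lie at II:4419904-4420103, II:4446840-4447039, II:4456260-4456459, II:4466087-4466286 (reverse strand), II:4476801-4477000, II:4483694-4483983 and II:4490573-4490772, in the order printed. The stretches from the islands between Tf2-11 and pfl5, fub2 and nrg1, and SPBPB2B2.08 and pan5 were 83.5%, 77.5% and 77.5% A+T. The stretch between pho84 and pho1, outside any island, was 75% A+T with 6 runs of AAAAA or TTTTT. The one beyond gal1, which also lies in an island, was 78% A+T with 1 run. These 5 were picked for their A+T, so nothing is read from how rare they are. Runs were searched on the printed strand, which covers both strands because each motif is the reverse complement of the other. Of the 62858 tiles of 200 bases of the 3 chromosomes, 1.19% held at least 6 runs and 44.7% at least 2. The start of nam3, taken by position, was 61.5% A+T with 2 runs, where the median tile was 64% A+T, and the gap between gal7 and tgd1 was 63.1% A+T.

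Across the segment as a whole, Rad52 IP/input was broadly raised on 1 library and near the array median on the others. The mean over the 142 bins was 0.88 on the library labelled WT replicate 2, 1.84-fold over the array median. It was 0.05 and 0.02 on WT 1 and WT 3, and 0.17, 0.12 and 0.23 on Δrad3 1 to 3. The Δrad3 arrays thus lay above WT 1 and WT 3 and below the library labelled WT replicate 2. Relative to all other bins the segment stood at 0.33 ± 0.48 in WT and 0.16 ± 0.06 in Δrad3 (SD, n = 3), a difference smaller than the spread of the WT arrays. No p is given for such means, because the segment was chosen with earlier results of these arrays known.

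**Figure D1:**
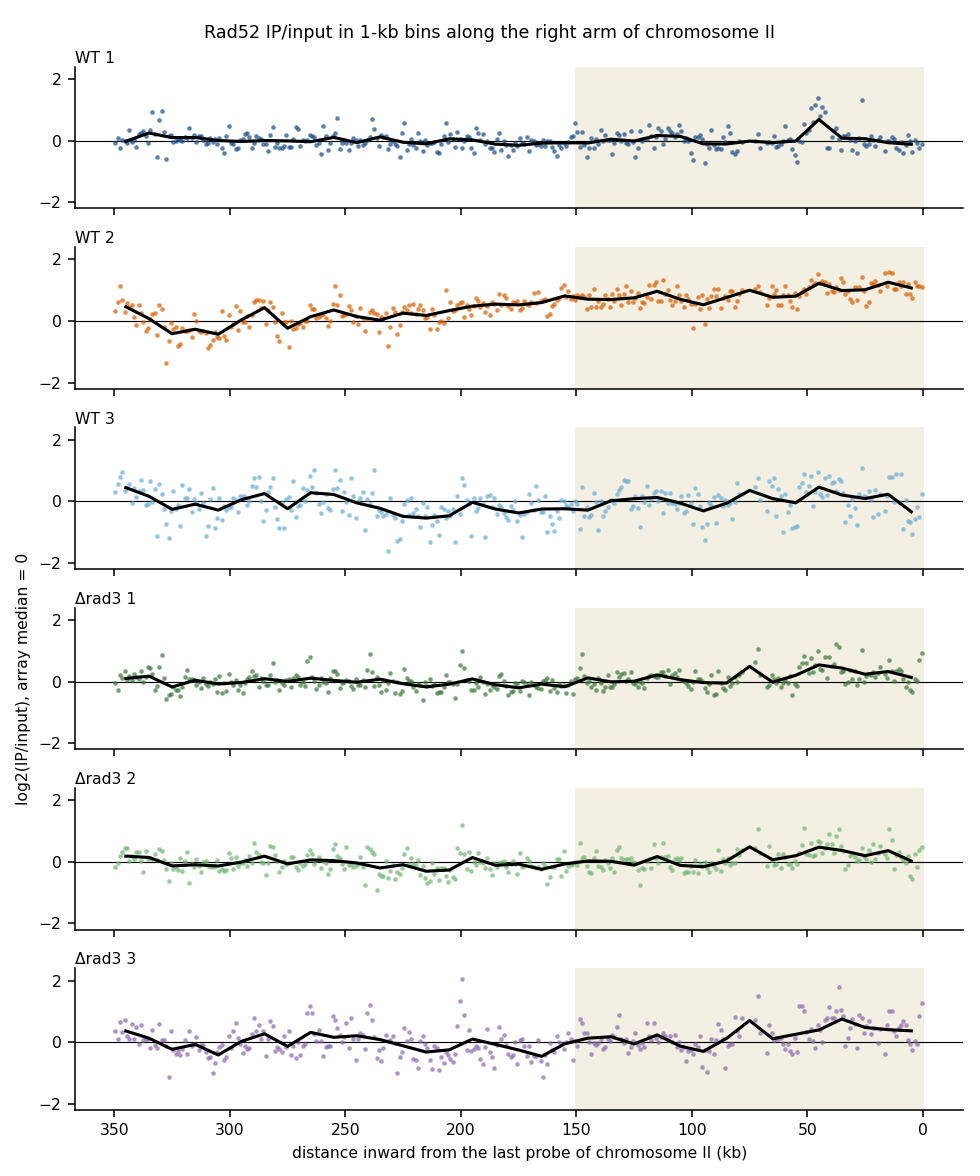
Rad52 IP/input (log2, array median 0) of 1-kb bins along the right part of probed chromosome II on each of the 6 arrays, against the distance inward from the last probe. Dots are bins, black lines are means over 10 kb, and the shaded part is the 150 kb described here: the library labelled WT replicate 2 is above 0 over nearly all of it, whereas on WT 1 the highest bins are at pho84 and pho1 and at nam3.

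The raised level on the library labelled WT replicate 2 covered genes and gaps alike. Of its 142 bins, 140 lay above 0, and the exceptions were at vma10, a subunit of the vacuolar proton pump, and at rpc40 and uap1. This library was the highest of the 6 arrays in 126 bins, or 88.7%, against 26% of all bins of the genome. It was also the highest in all 15 windows (35.3% of all windows) and in 50 of the 52 genes (27% of all genes). Its windows ran from 0.52, at ppr8 to tim21, to 1.26, in the window that holds pan5, and 14 of the 15 were in its top 10% of windows. On WT 1 only 1 window was in that top 10%, on WT 3 there were 2, and on Δrad3 1 to 3 there were 5, 5 and 6.

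The raised level did not begin at the border of the segment. On the library labelled WT replicate 2, going inward from 4342001, the next 5 windows of 10 kb stood at 0.79, 0.59, 0.55, 0.55 and 0.47, and the 5 after those between 0.05 and 0.31. On the other 5 arrays the same 10 windows stood between -0.57 and 0.22. Towards the end of the chromosome the level went up on this library. The inner 75 kb of the segment stood at 0.74 on it, the outer 75 kb at 1.03 and the outermost 20 kb at 1.15.

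The same pattern of arrays was not seen at every chromosome end. Mean IP/input over the probes of the right 150 kb of chromosome I was 1.17 on the library labelled WT replicate 2, and at the right end of chromosome III it was 1.91. At the left ends of chromosomes I and II it was -0.04 and -0.09. On the Δrad3 arrays the right end of chromosome II stood at 0.17, 0.12 and 0.24, next to 0.56, 0.93 and 1.10 at the right end of chromosome III and 0.10, 0.05 and 0.15 at the left end of chromosome II. The channels of the library labelled WT replicate 2 show where the value came from: over the segment its precipitated signal was 0.91 and its input signal 0.03, both against their own array medians. With normexp background correction the mean of the segment on it was 0.55.

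**Figure D2:**
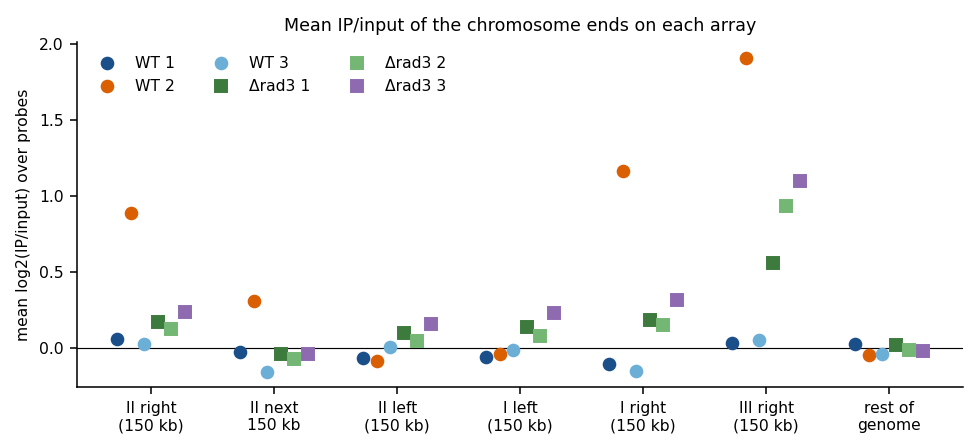
Mean IP/input (log2, array median 0) over the probes of the right end of chromosome II, of the 150 kb next to it, of 4 other chromosome ends and of the remaining genome. Circles are WT and squares Δrad3 arrays, 1 symbol per array: the library labelled WT replicate 2 stands at 0.89 at the right end of chromosome II, and the other 5 arrays between 0.02 and 0.24.

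The locus of pho84 and pho1 was raised on all 6 arrays. Its 10-kb window (II:4442001-4452000) stood at 0.68, 1.22 and 0.43 on WT 1 to 3 and at 0.53, 0.48 and 0.39 on Δrad3 1 to 3. The WT and Δrad3 arrays overlap, and on WT 1 no other window of the segment exceeded 0.16. This was the only window of the 15 enriched in WT, with a mean of 0.78 ± 0.40 (SD, n = 3) and adjusted p = 0.04 in limma, where enriched means adjusted p under 0.05 and a mean of at least 0.5. Of all windows, 0.653% were enriched in WT and 0% in Δrad3. With the replicate number as a block 0 of the 15 were enriched in WT (0.0816% of all windows). Without the library labelled WT replicate 2, 1 was enriched in WT (0.245% of all windows) and 2 in Δrad3 (2.12%). The count in WT was 6 without WT 1, against 50 of all 1226 windows. It was 0 without WT 3, without any 1 of the Δrad3 arrays, with normexp and with a trended robust variance. In each of these settings 0 of all 1226 windows were enriched in WT.

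In WT, signal within the locus was highest between pho84 and pho1. The 5 probes in the 1305 bp from the end of pho84 to the start of pho1, where prt begins, gave 1.23, 1.41 and 0.90 on WT 1 to 3 and 0.87, 0.69 and 0.36 on Δrad3 1 to 3. These values correspond to 1.87-fold to 2.67-fold over the array median in WT and 1.29-fold to 1.83-fold in Δrad3, and the groups do not overlap. Upstream of pho84, the 6 probes in the first part of prt2 gave 0.91, 1.20 and 0.59 in WT and 0.48, 0.41 and 0.15 in Δrad3, also without overlap. All 3 Δrad3 arrays lay below all 3 WT arrays in 6.24% of all bins too. Among genes this held for 4 of the 52 of the segment (7.69%) and for 7.70% of all genes. In the first kb after pho1 the WT values of 0.93, 1.28 and 0.75 and the Δrad3 values of 0.81, 0.44 and 0.72 overlapped. In Δrad3 the mean of that first kb, 0.65, was close to the 0.64 between pho84 and pho1, and upstream of pho84 and in pho84 it was 0.35.

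The gene bodies were less even among arrays. pho84 (SPBC8E4.01C, II:4444101-4446200, forward strand) stood at 1.00, 1.26 and 0.15 on WT 1 to 3 and 0.57, 0.33 and 0.14 on Δrad3 1 to 3. pho1 (SPBP4G3.02, II:4447506-4449053) stood at 0.92, 1.25 and 0.05 in WT and 0.27, 0.34 and 0.17 in Δrad3. WT 3 was thus low over both coding sequences, at the level of the Δrad3 arrays, although it was high between them. The non-coding RNAs, whose spans share probes with the coding genes, stood at 0.81 ± 0.45 (prt2) and 0.88 ± 0.47 (prt) in WT and 0.31 ± 0.19 and 0.40 ± 0.15 in Δrad3 (SD, n = 3).

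In the fit over all genes, 4 of the 52 genes of the segment were enriched in WT and 0 in Δrad3, against 1.97% and 0.024% of all genes. The 4 were prt2 (adjusted p = 0.032), prt (0.026), pho84 (0.048) and fub2, a relative of the proteasome inhibitor PI31 (0.048), all by limma. Of the 52 genes, 50 were protein-coding. prt2 and prt were added for this locus and were the only long non-coding RNAs among all genes tested. The share over all genes is thus not a like-for-like comparison for them, and they share probes with pho84 and pho1. pho1, at 0.74 ± 0.62 (SD, n = 3), did not pass (adjusted p = 0.055). Once the library labelled WT replicate 2 was left out, 0 of the 52 were enriched in either strain (0.312% and 1.97% of all genes). With the replicate number as a block, 11 of the 52 were enriched in WT and 0 in Δrad3 (4.46% and 1.49%).

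The difference between strains at these genes did not pass. It was -0.45 ± 0.27 (SE, limma) at pho84 and -0.48 ± 0.27 at pho1, with adjusted p = 0.74 for both, and -0.50 ± 0.23 at prt2 and -0.48 ± 0.23 at prt (limma adjusted p = 0.74). Within slides 1, 2 and 3 the difference at prt2 was -0.43, -0.86 and -0.22 and at pho1 it was -0.64, -0.91 and 0.12. The differences were closer to 0 when the library labelled WT replicate 2 was left out, at -0.22 at pho84, -0.22 at pho1, -0.31 at prt2 and -0.26 at prt (adjusted p = 0.87 to 0.88 in limma).

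Phosphate genes elsewhere in the genome were not enriched. Of the 17 names on the list, 14 had enough probes, 3 were enriched in WT and 0 in Δrad3 (1.97% and 0.024% of all genes). The 3 were prt2, pho84 and prt, which lie side by side, share probes in part and are among the 4 genes counted above. The genes behind those shares held no long non-coding RNA other than prt2 and prt. Of the 14, 0 were called different between strains. pho4, which encodes another acid phosphatase, stood at 0.81, 0.27 and 0.36 on WT 1 to 3 and 0.76, 0.40 and 0.26 on Δrad3. pho7, the transcription factor that activates pho1, pho84 and tgp1, stood at 0.12, -0.21 and -0.37 in WT and lay between -0.19 and 0 in Δrad3. tgp1, a glycerophosphodiester transporter gene that is also regulated by a non-coding RNA, lay between 0.06 and 0.26 on all 6 arrays. The largest difference on the list was that of csk1, a Cdk-activating kinase gene, at 1.00 over all 6 arrays and 0.72 without the library labelled WT replicate 2 (limma adjusted p = 0.74 over all 6). The list's median difference between strains was -0.16, and that of its 10 genes outside the segment was -0.02, next to -0.01 for all genes tested.

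A second narrow peak lay over nam3, one of the non-coding RNAs named for their association with the RNA-binding protein Mmi1. nam3 (SPNCRNA.1696, II:4464625-4466286, reverse strand) lies between say1, a sterol deacetylase gene, and SPBPB2B2.05, a glutamine amidotransferase gene. Its bin at II:4465001-4466000 stood at 1.34, 1.44 and 1.07 on WT 1 to 3 and at 1.04, 0.45 and 0.79 on Δrad3 1 to 3. It was the bin of highest WT mean in the segment, at 1.29 ± 0.19 (SD, n = 3; limma adjusted p = 0.0016), and it was enriched in Δrad3 too, at 0.76 ± 0.30 (0.028). It was also enriched in both strains without the library labelled WT replicate 2 (0.011 and 0.0091).

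Over the 8 probes of nam3 the values were 0.81, 1.30 and 0.60 in WT and 0.67, 0.32 and 0.77 in Δrad3, so the strains overlap. Its neighbours were lower: say1 stood at -0.28, 0.61 and -0.05 in WT and 0.06, 0.18 and 0.61 in Δrad3. SPBPB2B2.05 stood at -0.16, 0.69 and 0.37 in WT and 0.02, -0.09 and 0.46 in Δrad3. The bin's input signal was also above the array median on all 6 arrays, from 0.30 on WT 3 to 1.26 on Δrad3 2. Its part in the result was not tested. The bin is 67.7% A+T and touches no island. The input of the island bin between Tf2-11 and pfl5, named further on, was likewise above the median on all 6 arrays, at 1.01 to 1.36.

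**Figure D3:**
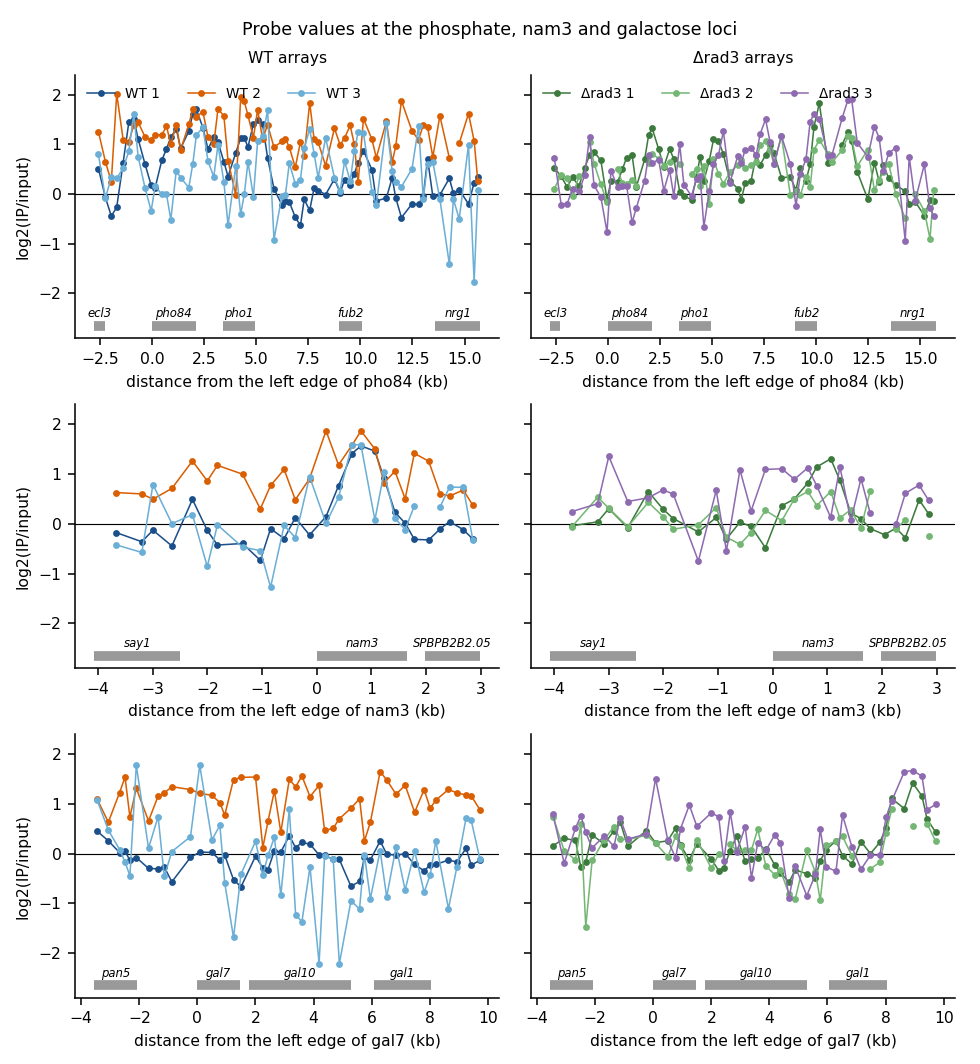
Probe values of IP/input (log2, array median 0) at the phosphate locus (top), nam3 (middle) and the galactose locus (bottom), against the distance in kb from the left edge of pho84, nam3 and gal7, with WT arrays on the left and Δrad3 arrays on the right. Grey bars are genes: WT 1 is high from upstream of pho84 to just beyond pho1, all 6 arrays rise over nam3, and beyond gal1 the Δrad3 arrays rise, whereas the library labelled WT replicate 2 is high over gal1 and beyond it alike.

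The 5 highest bins of WT and the 5 highest of Δrad3 had none in common. After the nam3 bin, the highest WT means were at the pho84 end (II:4446001-4447000), upstream of pho84 (II:4443001-4444000), at the end of pho1 (II:4449001-4450000) and in pho84 (II:4445001-4446000), at 1.29, 1.07, 0.99 and 0.90. In Δrad3 the order was led by the island between fub2 and nrg1 (II:4455001-4456000) at 1.32 and the island between Tf2-11 and pfl5 (II:4420001-4421000) at 1.21. The end of fub2 (II:4454001-4455000) at 1.03, the island between SPBC8E4.03 and ecl3 (II:4440001-4441000) at 0.99 and the island between pho1 and fub2 (II:4451001-4452000) at 0.94 followed. Neighbours in these orders differ by less than the spread of their arrays.

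Counted over the segment, 14 of the 142 bins were enriched in WT and 7 in Δrad3, 4 of them in both, against 3.25% and 1.86% of all bins. Of the 14 in WT, 7 lay in the window of pho84 and pho1 and 3 touched an island. Of the 7 in Δrad3, 2 lay in that window and 4 touched an island. The 4 in both were at Tf2-11 to pfl5, SPBC8E4.03 to ecl3, the end of pho84 and nam3. Without the library labelled WT replicate 2 there were 4 in WT and 19 in Δrad3, against 0.961% and 4.95% of all bins. With the replicate number as a block and all 6 arrays there were 31 in WT and 17 in Δrad3, against 6.98% and 5.48% of all bins. With normexp background correction 0 bins were enriched in WT and 8 in Δrad3, against 0 and 304 of all 12069 bins. With a trended robust variance it was 0 in either strain, against 0 and 70 of all bins. Without the library labelled WT replicate 2 and with no block, the 4 in WT were the nam3 bin and 3 bins of the phosphate locus, upstream of pho84, at its end and at the end of pho1.

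At the AT-rich islands, IP/input was above the rest of the segment on every array but WT 1. The 27 bins that touch an island had a mean of 0.00, 1.04 and 0.35 on WT 1 to 3 and 0.43, 0.48 and 0.77 on Δrad3 1 to 3. The other 115 bins stood at 0.06, 0.84 and -0.06 in WT and 0.11, 0.04 and 0.10 in Δrad3. On the Δrad3 arrays the mean of the bins outside islands was thus at most 0.11 above the array median, although single bins such as that of nam3 were far from it. Elsewhere in the annotated genome, island bins stood at -0.03, 0.23 and 0.25 in WT and 0.32, 0.33 and 0.52 in Δrad3. Bins that touch an island were 69.6% A+T in the segment and the others 64.5%, so composition and position at an island go together.

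**Figure D4:**
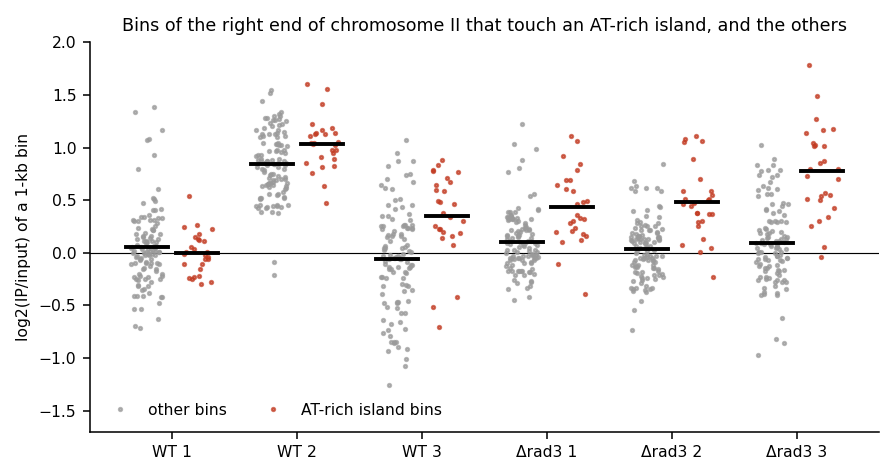
IP/input (log2, array median 0) of the 142 bins of the right end of chromosome II on each array, split into the 27 that touch an AT-rich island (red) and the 115 others (grey), with bars for the means. Island bins have the higher mean on the 3 Δrad3 arrays, WT 3 and the library labelled WT replicate 2, and not on WT 1.

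The 12 islands were not alike. The one between Tf2-11 and pfl5, a cell-surface glycoprotein gene, gave 0.08, 1.05 and 0.69 on WT 1 to 3 and 0.98, 0.87 and 1.30 on Δrad3 1 to 3. The one between fub2 and nrg1, an amino-acid permease gene, gave -0.11, 1.19 and 0.34 in WT and 0.67, 0.93 and 1.40 in Δrad3. On these islands WT 1 stayed near or below the array median while the Δrad3 arrays were all above 0.6. The island between SPBPB2B2.08 and pan5, the gene of a 2-dehydropantoate 2-reductase, gave the highest island value of the library labelled WT replicate 2, at 1.64, with 0.01 and 0.69 on WT 1 and 3 and 0.64, 0.91 and 1.13 in Δrad3. The lowest were those between SPBPB2B2.06C and SPBPB2B2.07C, at 0.19 to 0.36 in Δrad3, and between SPBPB2B2.05 and SPBPB2B2.06C, at 0.25 to 0.60. The island next to pho1, between pho1 and fub2, was low on WT 1 at -0.19 and stood at 0.65, 0.85 and 1.03 in Δrad3.

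Probes between genes gave more signal than probes in genes on 5 of 6 arrays. The 195 intergenic probes minus the 301 probes in coding genes gave -0.08, 0.17 and 0.25 on WT 1 to 3 and 0.32, 0.40 and 0.47 on Δrad3 1 to 3. Elsewhere in the annotated genome the same measure was -0.15, 0.18 and 0.15 in WT and 0.17, 0.21 and 0.28 in Δrad3, so 2 of the 3 Δrad3 arrays exceeded all WT arrays there, and Δrad3 1 lay just below the library labelled WT replicate 2. Whether the segment and the rest of the genome differ in this measure was not tested. In Δrad3 the 23 probes between convergent genes were highest, at 0.55, 0.54 and 0.86, and those between divergent genes stood at 0.17, 0.19 and 0.25. On WT 1 to 3 these 23 probes stood at -0.003, 1.13 and 0.27. Elsewhere, too, probes between convergent genes were the highest class in both strains. They stood there at 0.28, 0.39 and 0.31 in WT and 0.38, 0.29 and 0.29 in Δrad3.

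The galactose genes were not enriched in either strain. gal7 (SPBPB2B2.10C, II:4482234-4483693, reverse strand) stood at -0.13, 1.13 and 0.07 on WT 1 to 3 and 0.21, 0.07 and 0.63 on Δrad3 1 to 3. gal10 (SPBPB2B2.12C, II:4484023-4487535, reverse strand), which overlaps tgd1 on the other strand, stood at -0.05, 0.96 and -0.59 in WT and -0.18, -0.16 and 0.09 in Δrad3. gal1 (SPBPB2B2.13, II:4488298-4490271, forward strand) stood at -0.08, 1.25 and -0.37 in WT and 0.14, 0.08 and 0.13 in Δrad3. On all 3 genes the library labelled WT replicate 2 was the highest array, and WT 3 was the lowest at gal10 and gal1. Of the 3, 0 were called different between strains: differences were -0.06, -0.20 and -0.15 over all 6 arrays and 0.33, 0.23 and 0.34 once the library labelled WT replicate 2 was left out (limma adjusted p = 0.79 to 0.97). The list's median difference was -0.15, next to -0.01 for all genes.

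Beyond gal1, the last 6 probes of the chromosome gave -0.13, 1.13 and 0.03 on WT 1 to 3 and 0.95, 0.57 and 1.30 on Δrad3 1 to 3. These probes lie in an AT-rich island (II:4490001-4492400). Within slides 1, 2 and 3 the Δrad3 minus WT difference there was 1.08, -0.56 and 1.27, with the turned sign on the slide of the library labelled WT replicate 2. Over the outermost 20 kb, which holds the galactose genes and pan5, the arrays stood at -0.09, 1.15 and -0.08 in WT and 0.21, 0.16 and 0.39 in Δrad3. Input over this 20 kb was 0.14, 0.25 and -0.05 in WT and 0.31, 0.40 and 0.23 in Δrad3. Its part in the result was not tested.

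No bin, window or gene of the segment differed between strains in limma over all 6 arrays. None of the 142 bins was called higher or lower, against 0.00829% and 0% of all bins, and 13 had an unadjusted p under 0.05, 1 higher and 12 lower in Δrad3 (7.13% of all bins in either direction). None of the 15 windows was called (0% of all windows), and 0 had an unadjusted p under 0.05 (7.75% of all windows). None of the 52 genes was called (0% of all genes), and 2 had an unadjusted p under 0.05, both lower in Δrad3 (5.64% of all genes). All 3 Δrad3 arrays lay above all 3 WT arrays in 1 bin and below them in 12, against 7.03% and 6.24% of all bins.

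Among bins lower in Δrad3, the smallest p were at pho84 (II:4445001-4446000), SPBC8E4.04, an aldo/keto reductase gene (II:4432001-4433000), cao2, a copper amine oxidase-like gene (II:4427001-4428000), the end of pho84 (II:4446001-4447000) and pob1, a Boi family gene (II:4390001-4391000). Their differences ran from -0.71 to -0.55, with adjusted p = 0.63 to 0.67 in limma. Among bins higher in Δrad3, they were the island between fub2 and nrg1 (0.72 ± 0.28, SE), rpt1 (II:4343001-4344000; 0.70 ± 0.34), the island between Tf2-11 and pfl5 (0.51 ± 0.25), rpc40 with uap1 (II:4397001-4398000; 0.53 ± 0.27) and the end of fub2 (0.41 ± 0.24). Their adjusted p was 0.63 to 0.75. Of genes, tim21, a subunit of the mitochondrial TIM23 translocase, and SPBC8E4.04 had the smallest p, at -0.55 ± 0.19 and -0.58 ± 0.21 (SE; limma adjusted p = 0.74). The other genes with the smallest p for a lower value were prt2, usp109, a U1 snRNP protein gene, at -0.48, and ppr8, a PPR repeat protein gene, at -0.34. say1, at 0.19, and SPBC1289.14, an adducin-like gene, at 0.00, were the 2 of 52 genes with a difference above 0. Without the library labelled WT replicate 2, 28 of the 52 were above 0, and the median over the 52 went from -0.28 to 0.02. tim21 then stood at -0.53, SPBC8E4.04 at -0.34, usp109 at -0.27 and say1 at 0.45.

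Leaving out the library labelled WT replicate 2 turned the direction of the difference over the segment. The region-wide difference was -0.15 with it and 0.14 without it, from means over probes, and within slides 1, 2 and 3 it was 0.12, -0.77 and 0.21. In limma 0 of the 142 bins were still called, but 18 had an unadjusted p under 0.05, all higher in Δrad3 (7.77% of all bins in either direction). Of the 15 windows 0 were called higher (0.979% of all windows), and 6 had an unadjusted p under 0.05, all higher (9.3%). Of the 52 genes 3 had an unadjusted p under 0.05, 1 higher and 2 lower (6.21% of all genes). All 3 Δrad3 arrays lay above WT 1 and WT 3 in 30 bins (12.4% of all bins) and in 9 of the 15 windows (14.2% of all windows). In those 2 counts the share of the segment's members was 21.1% and 60%, with none of the 15 windows below WT 1 and WT 3. Windows next to each other share the broad level of an array and are not independent. A higher level in Δrad3 than on WT 1 and WT 3 was not particular to this segment. From means over probes, that difference was 0.13 and 0.19 at the left ends of chromosomes II and I. It was 0.35 and 0.82 at the right ends of chromosomes I and III, and 0.004 over the remaining genome.

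With the replicate number as a block and that library left out, so that the difference rests on slides 1 and 3, limma called 5 of the 142 bins higher in Δrad3 and 0 lower, against 1.73% and 0.0497% of all bins. They were the island between fub2 and nrg1 (adjusted p = 0.015), rpt1 (0.024), gal7 with tgd1 (0.042), the end of gal1 (II:4490001-4491000; 0.013) and the last bin beyond gal1 (0.018). Of these, 3 touch an island, the exceptions being rpt1 and gal7 with tgd1. On the library labelled WT replicate 2 all 5 stood between 0.80 and 1.26. With the block and all 6 arrays none of the bins was called.

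No bin of the segment was called different between strains in its input DNA. Of the 142 bins 0 were called in limma (0% of all bins), and 1, at say1 (II:4462001-4463000), had an unadjusted p under 0.05 (0.141% of all bins). Its input was 0.03, -0.10 and 0.19 on WT 1 to 3 and 0.48, 0.33 and 0.61 on Δrad3 1 to 3. Over all 496 probes the mean input was -0.03, 0.03 and -0.14 in WT and 0.07, 0.11 and 0.04 in Δrad3. The Δrad3 arrays were thus the higher 3, and within slides 1, 2 and 3 the difference was 0.11, 0.08 and 0.18. Its mean over strains, 0.12, was not particular to the segment. The same difference was 0.13 and 0.18 at the left ends of chromosomes II and I. At the right ends of chromosomes I and III it was 0.15 and 0.02, and over the remaining genome 0.0001. Under the slide block 0 bins were called, and 19 of the 142 had an unadjusted p under 0.05, all higher in Δrad3, against 3.5% of all bins. The part of this input difference in the IP/input values was not tested.

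Across the 142 bins, the Δrad3 arrays resembled one another more than the WT arrays did. Pearson's r was 0.70 to 0.75 between Δrad3 arrays and 0.37 to 0.39 between WT arrays, as a description over bins that share a base composition and lie side by side. The arrays did not group by strain, however. With Δrad3 1 to 3, WT 3 stood at 0.55, 0.53 and 0.53, and the library labelled WT replicate 2 at 0.50, 0.56 and 0.41. These values are above those between WT arrays. WT 1 stood at 0.48, 0.24 and 0.07 with Δrad3 1 to 3, the last being the lowest value over these bins. Over the bins of the whole array r was 0.51 to 0.61 between Δrad3 arrays and 0.28 to 0.45 between WT arrays. The closer likeness of the Δrad3 arrays was thus not particular to the segment.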

How the data were processed

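The authors deposited one Agilent Feature Extraction file per 2-colour array with processed signal intensity for both channels (version 10.7.3.1, per the submitters' processing notes). Per the labels, input was red and the precipitate green on all 6 arrays, although the series text mentions reciprocal labelling. The deposited LogRatio column holds log10 of red over green, and was used only to check direction. The protocol named in the file headers was of the CGH kind on slides 1 and 3 and of the ChIP kind on slide 2. From these files log2 of green over red processed signal was computed and centred on each array's median, without loess. Control spots and spots marked as outliers were left out, which removed 39 of the 496 values of Δrad3 2 and at most 4 of any other array. Median signal over background was 5.0 to 20.0 for input and 5.1 to 25.9 for the precipitate.

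The files name the build Spombe:NCBI:Feb2002. Genes and sequences come from RefSeq's ASM294v3. In 3 windows of the segment, the length of the probes correlated best with that assembly's A+T content at a shift of 0 bp (r = 0.48 to 0.54).

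Bins needed at least 2 probes, windows 10 and genes 2. Long non-coding RNAs were left out of the genes tested, except prt2 and prt, which were added for the phosphate locus. limma 3.58.1 in R 4.3.3 was fitted to all bins, windows or genes of the array, with Benjamini-Hochberg adjustment over all of them and a threshold of 0.05, and was tested on simulated data. The file headers place same-numbered WT and Δrad3 arrays on one slide, so the numbers pair the arrays. Deviations of these pairs from their group means correlated at 0.474, 0.101 and 0.263. Those of differently numbered arrays ran from -0.391 to 0.119, the highest being WT replicate 2 with Δrad3 3. For number 2 the pairing thus rests on the headers alone. The alternatives were the replicate block, each array left out, normexp with an offset of 50, scaled arrays, other filters, centring, variance model and bin width, and, chosen after seeing the data, the replicate block with WT replicate 2 left out.

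The segment and its gene lists were chosen with earlier results of these data known. Named were pho84, pho1, gal1, gal7 and gal10 with their neighbours, the 5 bins and genes of highest mean per strain, the 5 of smallest p per direction, and the extreme windows. vma10, rpc40 and uap1, which mark 2 exceptions, and nam3's neighbours were named after their values were seen.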

Additional observations from a re-analysis of the deposited data

How the results depend on the processing

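Counts of windows, genes and input bins called different between strains were 0 within the segment under every alternative run. Means of the segment against the rest of the genome moved by less than 1 SD between replicates. Leaving out 1 of 3 arrays cannot move a mean by more than that, so no stability is read from it. With 1 array left out, this mean ran from 0.05 to 0.48 in WT and from 0.13 to 0.18 in Δrad3. From means over probes, the difference between strains turned from -0.15 to 0.14 without WT replicate 2. Bins called different numbered 0 except for 1 with arrays scaled to 1 spread and 5 with the replicate block without WT replicate 2. Of all 12069 bins, 80 were called higher and 1 lower with scaled arrays, and 209 and 6 with that block. Counts of enriched bins depended on the setting. The count over all 12069 bins is given in brackets. In WT (14 in the main fit, 392 of all bins) they were 31 with the replicate block (842). They were 4 to 35 with 1 array left out (75 to 949), 0 with normexp (0) and 0 with a trended robust variance (0). With the block without WT replicate 2 there were 7 (294). In Δrad3 (7 in the main fit, 224 of all bins) they were 17 with the replicate block (661). They were 0 to 19 with 1 array left out (32 to 598), 22 with scaled arrays (712) and 0 with a trended robust variance (70). With 2-kb bins there were 2 (134 of 6091), and with the block without WT replicate 2 there were 24 (751). The replicate block over all 6 arrays changed no other call between strains.

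Of 524 values for 36 named bins and genes under alternatives, 475 kept direction and side of the threshold, 26 lost a call, 3 gained one and 20 changed sign. Those that changed sign were not called between strains. The bin at the end of pho84 came to 0.024 with normexp. With 1 array left out, SPBC1289.14 ran from -0.17 to 0.29, fub2 from -0.24 to 0.082, gal7 from -0.30 to 0.33, tgd1 from -0.55 to 0.22, gal10 from -0.54 to 0.23 and gal1 from -0.46 to 0.34. With normexp fub2 came to 0.10 and gal7 to 0.19, and with scaled arrays to 0.063 and 0.072. With the block without WT replicate 2, fub2, gal7, tgd1, gal10 and gal1 came to 0.21, 0.45, 0.28, 0.27 and 0.36. The cause was not tested. Signal over background was lowest on slide 3.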
